A study of Mus musculus with 2 samples.

Results

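The genes described here are 10 members of the growth hormone and cytokine signalling route in mouse brown adipose tissue, among 31053 genes in the matrices: the receptor Ghr, the transcription factors Stat5a, Stat5b and Stat3, the feedback genes Socs2 and Cish, the kinases Pim1 and Pim3, the repressor Bcl6 and the hormone Igf1. They were selected with measured values of these libraries in view, so their levels and ratios are a description and no member was tested. Nuclei of brown fat from C57BL/6 mice, an inbred laboratory strain, were sorted for DNA content with DAPI and read on a 10X droplet platform. Mice of the TN library lived at thermoneutrality, a temperature that calls for no added heat. Those of the 1cyc library had a short acute bout of cold and were sampled 4 days later, so this library reports the tissue after the challenge and not during it. Each library pooled the nuclei of 5 mice, with no record of which nucleus came from which mouse. Age and sex are not given in the labels used here. With 1 pooled library per condition there is no replicate, so condition and library cannot be told apart and no p-value was computed. All intervals below are 95% intervals for counting error only.

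Growth hormone binds its receptor GHR, which activates the kinase JAK2. JAK2 phosphorylates STAT5A and STAT5B, which enter the nucleus, bind DNA as dimers and switch on target genes. In many tissues these targets include Igf1, which encodes insulin-like growth factor, and Cish and Socs2, whose products dampen the same receptor. Cytokine receptors use the related factor STAT3. PIM1 and PIM3 are serine/threonine kinases that are active once made, so their amount is set largely by transcription and protein turnover, and Pim1 is a known STAT target. BCL6 is a transcriptional repressor that can bind sequences resembling STAT sites, and growth hormone lowers it in liver. In adipocytes, growth hormone signalling is known for its part in lipid breakdown.

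Stretches with the palindrome TTCNNNGAA, the core that STAT dimers recognise, are shown because 2 members carry more than 1 of them near a start site. RefSeq start-site windows (GRCm38.p6, 250 bases before to 50 after the start) were found for 9 of the 10 members, 14 windows in all. Only this spelling was searched, and it reads the same on both strands. Cish and Bcl6 had matches, and the windows of the other 7 members had none. Each stretch is printed 5′ to 3′ on the gene's strand with the matches in capitals.
Cish, chr9:107296654-107296683, plus strand: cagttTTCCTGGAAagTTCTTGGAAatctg
Bcl6 first window, chr16:23988952-23988980, minus strand: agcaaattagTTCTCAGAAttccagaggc
Bcl6 second window, chr16:23981433-23981461, minus strand: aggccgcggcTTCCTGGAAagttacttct
Bcl6 second window, chr16:23981387-23981415, minus strand: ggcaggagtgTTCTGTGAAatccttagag
Bcl6 second window, chr16:23981353-23981381, minus strand: atcgactacgTTCCGGGAAtgagagggct
Of all 32851 start-site windows, 8.30% held at least 1 match and 0.457% at least 2. Counted by gene, with the window of most matches taken, 9.55% of 27025 genes held at least 1 and 0.540% at least 2. The Cish window held 2 matches, and 1 of the 2 Bcl6 windows held 3. A match describes the letters of the window and was not measured as a binding site, and a window without one says nothing about the factor.

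An adipocyte nucleus had at least 4 UMIs (unique molecule counts) summed over Pparg, Acsl1, Pde3b and Ppara, with under 5% of its UMIs from the mitochondrial genome. This gave 1081 TN and 912 1cyc nuclei, with 1193078 and 989852 UMIs and a median of 873 and 966.5 UMIs per nucleus. Nuclei with at least 3 UMIs of Nnat and Slc7a10 were called white-like: 81 in TN (7.49%, 5.99 to 9.23%) and 23 in 1cyc (2.52%, 1.61 to 3.76%). The other adipocyte nuclei numbered 1000 and 889. Non-adipocyte nuclei, with at most 1 UMI of the 4 rule genes, numbered 87 and 69. Just outside the adipocyte threshold, at 3 rule UMIs, lay 61 TN and 53 1cyc nuclei, and just inside, at 4, lay 45 and 49. At the white-like threshold 18 and 4 nuclei held 2 UMIs, and 10 and 3 held 3. Genes outside the rule matched the names: 6 adipocyte markers, Adipoq and Plin1 among them, summed to 3592 and 3755 CPM (counts per 1000000 UMIs of the summed class) in adipocyte nuclei against 1339 and 745 in non-adipocyte nuclei. A list of 5 white adipocyte markers, which includes Lep, summed to 2577 and 1849 CPM in white-like nuclei against 453 and 301 in the other adipocyte nuclei. The thermogenic list, Ucp1 and 6 others, summed to 883 and 670 CPM in white-like nuclei against 4585 and 5390, and Ucp1 was at 0 in 1cyc white-like nuclei.

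The libraries differed in quality. The TN library held 2551 barcodes with a lowest total of 500 UMIs, and 52.5% of them were under the mitochondrial limit; 1cyc held 4321 with a lowest total of 262, and 25.1% were under it. Only 6 barcodes were shared, and without them the Pim1 ratio was 3.76. Among TN adipocyte nuclei, 6 were rich in haemoglobin and carried 43176 haemoglobin UMIs but 10 UMIs of the members, all of Ghr. Of adipocyte nuclei, 81 in TN (7.49%) and 30 in 1cyc (3.29%) had at least 3 UMIs of another cell type's marker list. Summed marker levels in adipocyte nuclei, in TN and 1cyc, were 468 and 207 CPM for 7 endothelial markers, 507 and 237 CPM for 10 fibroblast markers, and 91.4 and 394 CPM for 6 skeletal muscle markers, with no marker of these lists at 0 in either library.

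**Figure D1:**
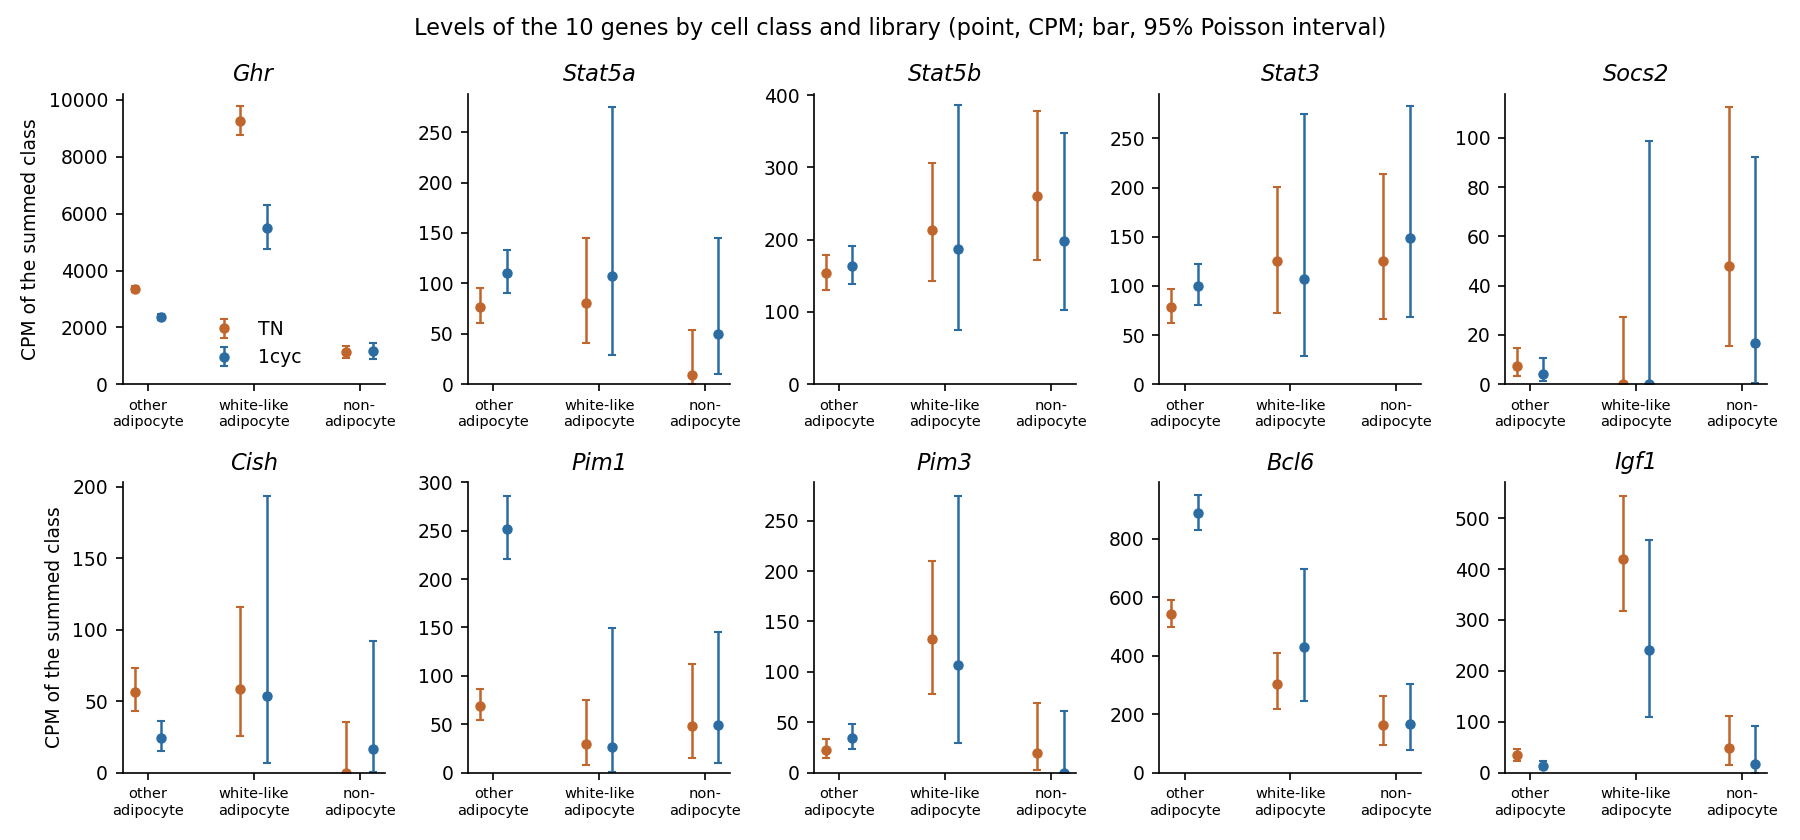
Level of each gene (CPM of the summed class, linear axis from 0) in other adipocyte, white-like and non-adipocyte nuclei, with orange points for TN, blue points for 1cyc and 95% Poisson intervals as bars. Pim1 stands at 252 CPM in other adipocyte nuclei of 1cyc and between 26.8 and 69.0 CPM in the other 5 sums, while Igf1 and Ghr are at their top in white-like nuclei of TN.

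In adipocyte nuclei Pim1 was higher and Igf1 lower in 1cyc than in TN, Bcl6 was higher and Ghr lower by less, and Cish was lower on few molecules, while the intervals of Stat5b and Stat3 included 1. Of the 10 members, 7 had at least 100 UMIs over both adipocyte sums, the minimum for counting a gene by the size of its ratio; Socs2, Cish and Pim3 did not. At least 2-fold higher in 1cyc was 1 of the 7, Pim1, where 1.54% of the 3643 genes with this depth were. At least 2-fold lower was 1 of the 7, Igf1, where 2.14% of these genes were. At 1.5-fold, 2 of the 7 were higher (Pim1 and Bcl6; 8.56% of all) and 2 lower (Ghr and Igf1; 5% of all). These members were chosen on this contrast, so nothing is read from their share. The median log2 ratio was 0.25 over the 7 members and 0.09 over all 3643 genes.

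**Figure D2:**
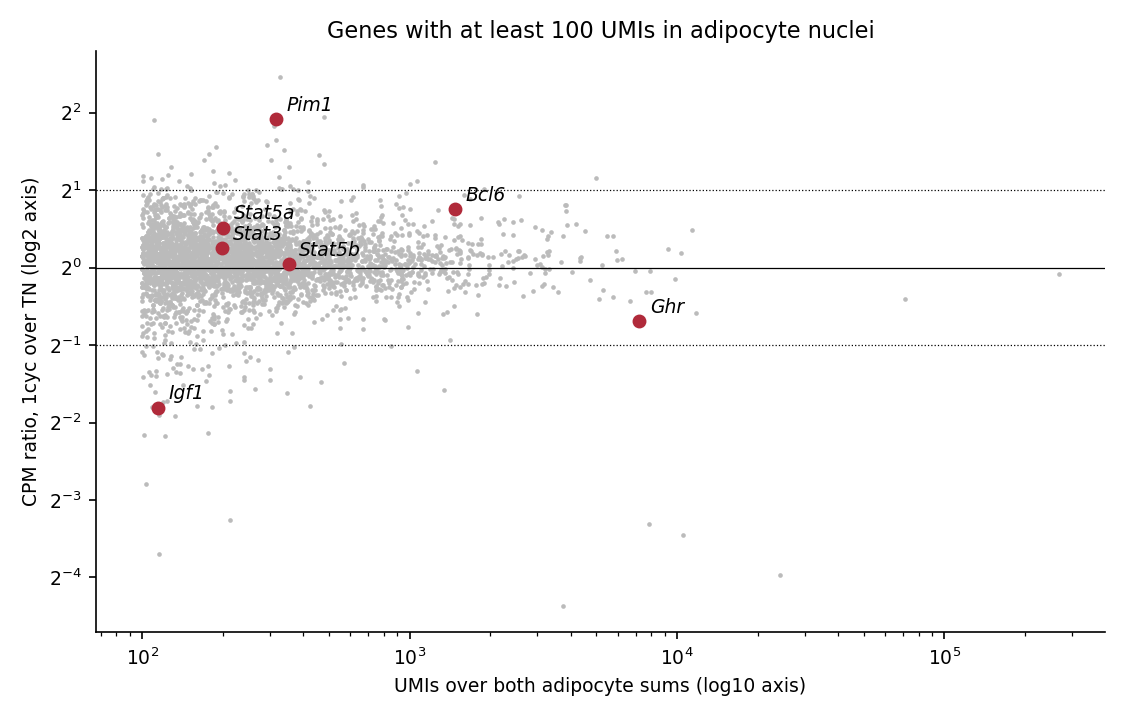
CPM ratio of 1cyc over TN (log2 axis) against the UMIs over both adipocyte sums (log10 axis) for genes with at least 100 UMIs, with the 7 members that reached this depth in red and dotted lines at 2-fold. Pim1 had the 3rd highest ratio of 3643 and Igf1 the 14th lowest, while Stat5a, Stat5b and Stat3 lie among the bulk of the genes.

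Ghr, the growth hormone receptor gene (chr15:3317760-3583492, mm10, minus strand), was counted at 4011 CPM in TN adipocyte nuclei and 2477 CPM in 1cyc, from 4786 and 2452 UMIs. The ratio was 0.618 (0.588 to 0.648), the 138th lowest of 3643. Its level was highest in white-like nuclei, at 9254 CPM in TN and 5495 in 1cyc, then in other adipocyte nuclei, at 3338 and 2359, and lowest of these classes in the pooled non-adipocyte nuclei, at 1117 and 1159. Nuclei under the adipocyte threshold were not alike. Muscle-like nuclei were gated on markers after the data were seen, among nuclei with under 4 rule UMIs, a wider limit than that of the pooled non-adipocyte class. They stood near other adipocyte nuclei, with 2950 CPM in the 28 TN ones (2397 to 3591) and 2281 in the 7 from 1cyc (1446 to 3423). White-like nuclei held 2.77 times (2.60 to 2.96) the Ghr level of other adipocyte nuclei in TN and 2.33 times (2.01 to 2.69) in 1cyc. Over 3 alternative settings of the white-like class these ratios ranged from 2.18 to 2.68 and from 2.23 to 2.42. White-like nuclei were also deeper, with medians of 1536 against 856.5 UMIs in TN and 1335 against 953 in 1cyc. The 1cyc level was lower in both adipocyte classes, with ratios of 0.594 (0.510 to 0.689) in white-like and 0.707 (0.670 to 0.745) in other nuclei. In non-adipocyte nuclei the ratio was 1.04 (0.760 to 1.41), an interval that includes 1. A single TN nucleus held 163 Ghr UMIs, against at most 24 in any 1cyc nucleus. Without that nucleus the TN level was 3886 CPM. With every nucleus thinned to 500 UMIs, 75.9% of TN adipocyte nuclei and 66.7% of 1cyc ones had a Ghr UMI (88.3 and 80.5% unthinned), against 33.3 and 36.7% of non-adipocyte nuclei.

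The STAT genes encode the factors that carry the signal to the nucleus. Stat5b (chr11:100780731-100850724, minus strand) stood at 160 CPM in TN and 165 in 1cyc adipocyte nuclei, a ratio of 1.03 (0.829 to 1.27). Stat5a (chr11:100859351-100885169, plus strand), its close paralog, stood at 77.1 and 110 CPM, a ratio of 1.43 (1.07 to 1.91) that ranked 415th highest. Stat3 (chr11:100885098-100939540, minus strand) had 100 UMIs in the larger TN sum and 99 in 1cyc, a CPM ratio of 1.19 (0.895 to 1.59). Of these intervals only that of Stat5a lies clear of 1, and it stays so with totals without mitochondrial and haemoglobin genes (1.03 to 1.83). It includes 1 under TMM and DESeq2 scaling and with thinning to 500 UMIs (0.827 to 1.99). The same holds at mitochondrial limits of 2% (0.938 to 2.09) and 10% (0.996 to 1.65) and without a limit. TMM moved the median of all genes from 0.09 to -0.01 and DESeq2 size factors to -0.07 on the log2 scale. Stat5a then had ratios of 1.33 (1.00 to 1.78) and 1.28 (0.960 to 1.71), and without a mitochondrial limit 1.14 (0.906 to 1.44). Stat5b was below 1 under both scalings, and Stat3 stayed above 1 with intervals that include 1. The white-like to other adipocyte ratios of Stat5a, Stat5b and Stat3 had intervals that include 1 in both libraries. Non-adipocyte nuclei had 260 CPM of Stat5b in TN and 199 in 1cyc, giving adipocyte to non-adipocyte ratios of 0.616 (0.410 to 0.959) and 0.829 (0.462 to 1.64). The TN ratio depends on the class rule: against the 27 TN nuclei with 0 rule UMIs it was 2.58. Those nuclei held 2 Stat5b UMIs, too few to set a direction. Stat5a was seen in non-adipocyte nuclei with 1 UMI in TN and 3 in 1cyc. Stat5a and Stat5b share much of their sequence, and how reads were split between them was not examined. Stat3 and Stat5a overlap at their ends on opposite strands, and whether counting used strand is not given in the sources used here.

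Cish and Socs2 encode the feedback inhibitors of the receptor. Cish (chr9:107296026-107302784, plus strand), whose start-site window holds the paired palindromes shown above, had 68 UMIs in TN and 25 in 1cyc adipocyte nuclei, or 57.0 and 25.3 CPM. The ratio was 0.443 (0.268 to 0.710), below 1 throughout its interval but on fewer than 100 UMIs, so it is not among the counted genes. With a mitochondrial limit of 10% it reached that depth, at 94 and 28 UMIs and a ratio of 0.442, and counted as at least 2-fold lower. In TN Cish was seen in adipocyte nuclei, while the smaller non-adipocyte sum held 0 UMIs, with an upper bound of 35.5 CPM. In 1cyc non-adipocyte nuclei held 1 UMI, or 16.6 CPM. The adipocyte to non-adipocyte ratio there was 1.53 (0.250 to 62.6), which shows no difference between the classes. In white-like nuclei 8 and 2 Cish UMIs gave a ratio of 0.910 (0.0942 to 4.56), too wide to set against the 0.425 (0.251 to 0.698) of the other adipocyte nuclei. Socs2 (chr10:95385362-95417180, minus strand) was nearly absent from adipocyte nuclei, with 8 UMIs in TN and 4 in 1cyc, or 6.71 and 4.04 CPM. Its ratio of 0.603 (0.133 to 2.25) leaves no direction. Socs2 was higher in non-adipocyte nuclei of TN, where 5 UMIs gave 48.2 CPM and an adipocyte to non-adipocyte ratio of 0.139 (0.0402 to 0.541). Fibroblast-like nuclei, a class gated on fibroblast markers after the data were seen (92 nuclei in TN and 54 in 1cyc, with under 4 rule UMIs), held 7 Socs2 UMIs in TN and 0 in 1cyc, and 0 Cish UMIs in both.

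Pim1 (chr17:29490753-29496112, plus strand), a kinase gene, had 77 UMIs in TN and 241 in 1cyc adipocyte nuclei, or 64.5 and 243 CPM. The ratio was 3.77 (2.91 to 4.94), the 3rd highest of 3643 genes. Other adipocyte nuclei were at 69.0 CPM in TN and 252 in 1cyc, a ratio of 3.65 (2.80 to 4.81). White-like nuclei had 4 and 1 UMIs, or 29.4 and 26.8 CPM, and their ratio of 0.910 (0.0185 to 9.20) spans both directions. Non-adipocyte nuclei had 5 and 3 UMIs, or 48.2 and 49.7 CPM. In TN the Pim1 ratios of white-like to other adipocyte nuclei, 0.427 (0.113 to 1.14), and of adipocyte to non-adipocyte nuclei, 1.34 (0.550 to 4.24), both had intervals that include 1. In 1cyc, white-like nuclei were at 0.106 times (0.00268 to 0.598) the level of other adipocyte nuclei, on 1 UMI, and adipocyte nuclei at 4.90 times (1.66 to 23.9) the level of non-adipocyte nuclei.

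More nuclei carried Pim1 in 1cyc, and more of them carried several molecules. In TN 1009 of 1081 adipocyte nuclei had no Pim1 UMI, 68 had 1, 3 had 2 and 1 had 3. In 1cyc 727 of 912 had none, 141 had 1, 36 had 2 and 8 had 3 or more, up to 5. At 500 UMIs per nucleus, a Pim1 UMI was present in 30 of 1081 nuclei from TN, 2.78% (1.88 to 3.94%). The same held for 78 of 787 from 1cyc, 9.91% (7.91 to 12.2%), with 125 shallower 1cyc nuclei left out. Before thinning the shares were 6.66 and 20.3%. In non-adipocyte nuclei, with median depths of 945 and 740 UMIs, 1 of 87 (1.15%) and 1 of 49 (2.04%) had one after thinning. Both adipocyte shares were above these values but inside their intervals (0.0291 to 6.24% in TN and 0.0517 to 10.9% in 1cyc), which are wide because few non-adipocyte nuclei were counted.

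**Figure D3:**
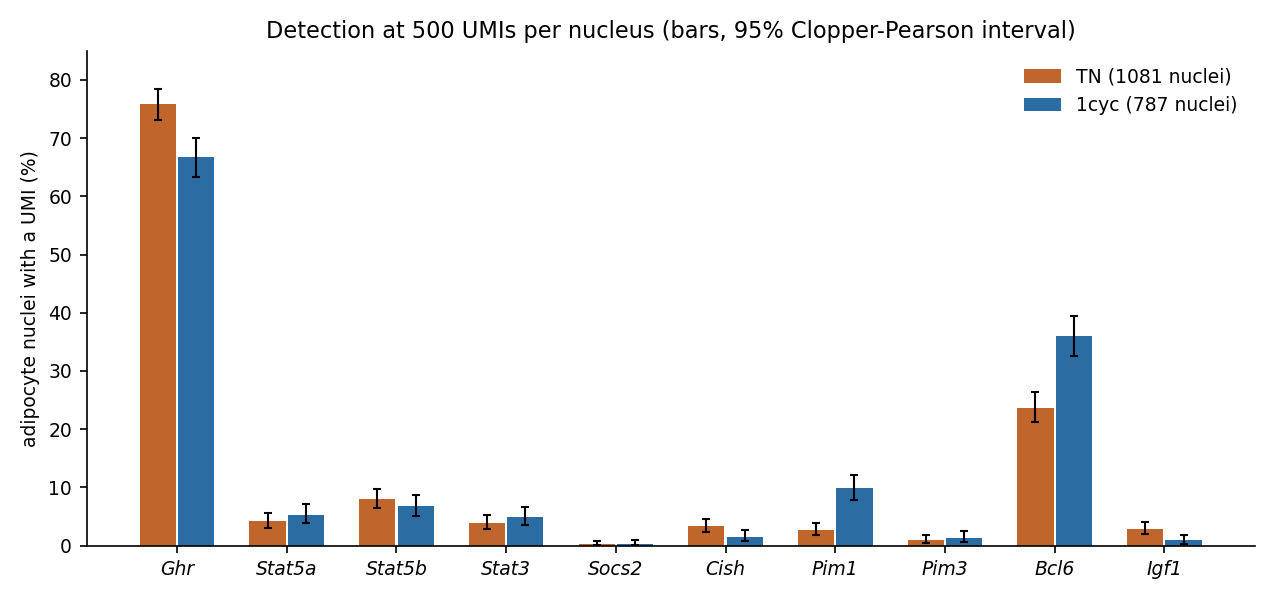
Share of adipocyte nuclei with at least 1 UMI of each gene (%), after thinning every nucleus to 500 UMIs, for 1081 TN nuclei (orange) and 787 1cyc nuclei (blue), with 95% Clopper-Pearson intervals. The Pim1 bars stand at 2.78 and 9.91% and the Bcl6 bars at 23.7 and 36.0%, and the Ghr bars at 75.9 and 66.7%.

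Splits by lipogenic or Ucp1 transcripts gave Pim1 ratios above 1 in each of their 4 subsets, and the interval of the nuclei with a Ucp1 UMI includes 1. The white-like interval given above (0.0185 to 9.20) holds all 4 of these ratios, so no contrast with white-like nuclei can be read. Nuclei thinned to 500 UMIs were split by whether they held a UMI of 6 lipogenic genes (Acly, Fasn, Scd1, Acaca, Elovl6 and Acss2). The ratio was 3.73 (2.31 to 6.24) in those that did and 6.01 (2.42 to 16.9) in those that did not. Within 1cyc the lipogenic-detected nuclei had 1.08 times (0.646 to 1.89) the Pim1 level of the rest. Split by Ucp1, the thermogenic uncoupling protein gene, the ratio was 2.88 (0.916 to 11.9) in 69 TN and 90 1cyc nuclei with a Ucp1 UMI, and 4.41 (2.80 to 7.16) in those without. Whether these ratios differ between subsets was not tested. Skeletal muscle markers also stood higher in 1cyc, at 91.4 CPM in TN and 394 in 1cyc adipocyte nuclei. The muscle-like nuclei named above held 4 Pim1 UMIs in TN, or 119 CPM (32.5 to 305), and 1 in 1cyc, or 99.2 CPM (2.51 to 553). Whether muscle transcripts bear on the Pim1 ratio was not tested. With the nuclei holding another type's markers left out, the Pim1 ratio was 3.62. With at least 500 UMIs asked of both libraries it was 3.89, and without haemoglobin-rich nuclei 3.64.

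The mitochondrial share of the barcodes differed between the libraries, and Pim1 was compared within ranges of it, as counts per 1000000 UMIs outside the mitochondrial genome. Below 2% mitochondrial UMIs Pim1 was at 66.9 in TN and 251 in 1cyc, a ratio of 3.75 (2.52 to 5.75). From 2 to 5% it was at 65.8 and 244, a ratio of 3.71 (2.59 to 5.39). From 5 to 10% the ratio was 2.81 (1.64 to 4.78), and from 10 to 25% it was 3.24 (1.63 to 7.01). Above 25%, 17 TN barcodes held 1 Pim1 UMI, too few to compare with the 92 UMIs of 898 1cyc barcodes. Ghr was lower in 1cyc in the 4 ranges below 25%, with ratios of 0.571, 0.625, 0.656 and 0.665 from the lowest range up, and above 25% its ratio was 1.72 (1.19 to 2.59) on 29 TN UMIs. Bcl6 had ratios of 1.74, 1.62, 1.90 and 1.17 in the same 4 ranges, and the interval of the fourth (0.873 to 1.57) includes 1.

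**Figure D4:**
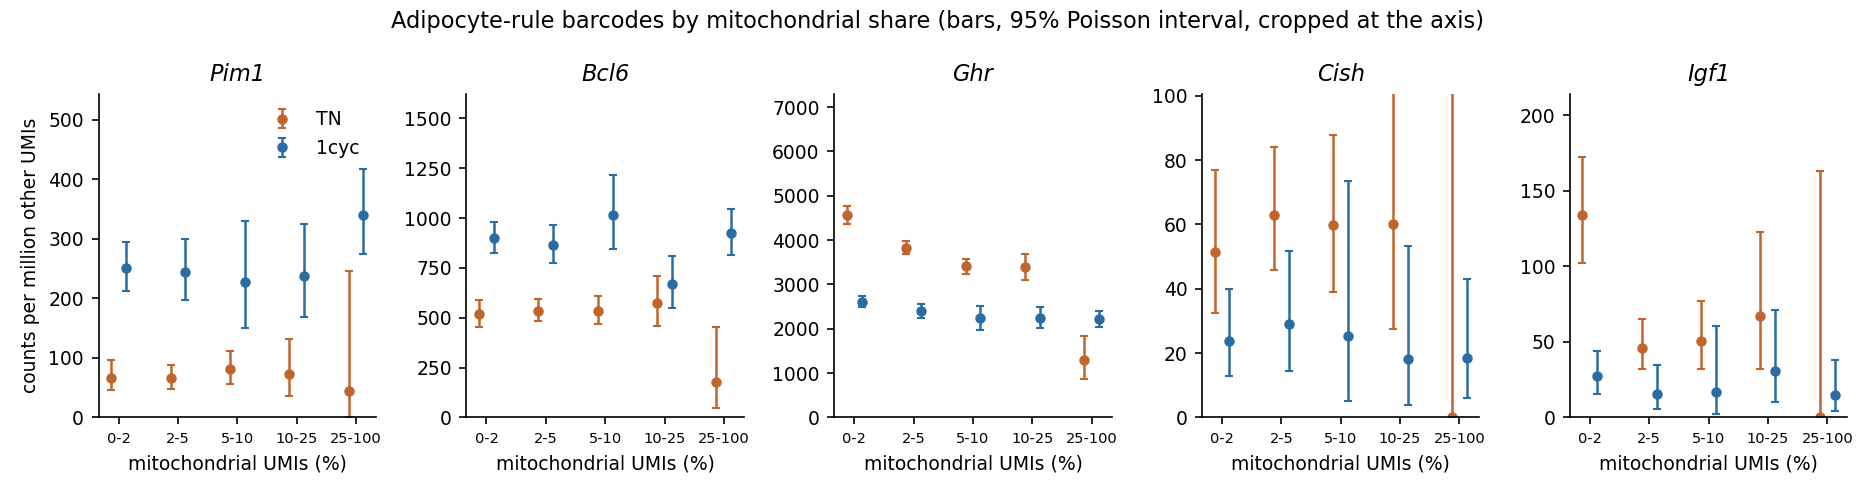
Counts per 1000000 UMIs outside the mitochondrial genome for 5 genes (linear axes from 0) in barcodes with at least 4 adipocyte rule UMIs, by mitochondrial share (%), for TN (orange) and 1cyc (blue) with 95% Poisson intervals cropped at the axis. Pim1 lies between 227 and 340 in the 5 ranges of 1cyc and between 44.3 and 80.6 in TN, and the TN points above 25% rest on 17 barcodes.

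Pim3 (chr15:88862186-88865726, plus strand), the related kinase gene, was at similar values in both libraries. It had 42 UMIs in TN and 37 in 1cyc adipocyte nuclei, or 35.2 and 37.4 CPM, a ratio of 1.06 (0.664 to 1.69). Its level was higher in white-like nuclei, at 133 CPM in TN against 22.7 in other adipocyte nuclei, a ratio of 5.84 (2.99 to 11.2). The other adipocyte nuclei still held 24 of the 42 TN UMIs. In 1cyc the 2 levels were 107 and 34.6 CPM, a ratio of 3.09 (0.796 to 8.70) on 4 white-like UMIs. Over 3 alternative settings of the white-like class this 1cyc ratio ranged from 0 to 3.43. Among other adipocyte nuclei the 1cyc to TN ratio of Pim3 was 1.53 (0.875 to 2.70), whose interval includes 1. Over all adipocyte nuclei Pim3 was below 1 under TMM and DESeq2 scaling.

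Bcl6 (chr16:23965052-23988852, minus strand), the repressor gene, was at 515 CPM in TN and 871 in 1cyc adipocyte nuclei, from 615 and 862 UMIs. The ratio was 1.69 (1.52 to 1.88), the 165th highest of 3643. In other adipocyte nuclei it was 1.64 (1.47 to 1.82), and in white-like nuclei 1.42 (0.744 to 2.59) on 41 and 16 UMIs. In non-adipocyte nuclei Bcl6 was at 164 and 166 CPM. The order of its levels was thus the reverse of Ghr between the adipocyte classes: white-like nuclei had 0.556 times (0.395 to 0.764) the Bcl6 level of other adipocyte nuclei in TN and 0.483 times (0.275 to 0.789) in 1cyc. After thinning, 23.7% of TN and 36.0% of 1cyc adipocyte nuclei had a Bcl6 UMI. Within 1cyc, nuclei with a lipogenic UMI had 1.42 times (1.07 to 1.91) the Bcl6 level of those without, and within TN 1.15 times (0.906 to 1.48). Nuclei with a Pim1 UMI had 1.06 times (0.734 to 1.48) the Bcl6 level of those without in 1cyc, an interval that includes 1.

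Igf1 (chr10:87858265-87937042, plus strand), the insulin-like growth factor gene, had 93 UMIs in TN and 22 in 1cyc adipocyte nuclei, or 77.9 and 22.2 CPM. The ratio was 0.285 (0.171 to 0.458), the 14th lowest of 3643. Most TN molecules, 57 of 93, came from the 81 white-like nuclei, where the level was 420 CPM against 34.1 in other adipocyte nuclei, 12.3 times as high (7.98 to 19.3). In 1cyc the 23 white-like nuclei held 9 of the 22 UMIs, at 241 CPM against 13.6, 17.7 times as high (6.67 to 44.7). This 1cyc value moves with the white-like rule: it was 58.6 from 2 UMIs, 9.44 from 5 UMIs and 0 when nuclei were thinned before classing, where 12 white-like nuclei held no Igf1 UMI. Within a class the 1cyc to TN ratio lay nearer 1 than in all adipocyte nuclei: 0.575 (0.250 to 1.17) in white-like nuclei, whose interval includes 1, and 0.401 (0.195 to 0.774) in the others. White-like nuclei were 7.49% of TN and 2.52% of 1cyc adipocyte nuclei. Whether this share bears on the Igf1 ratio was not tested. After thinning, none of the 69 TN and 90 1cyc nuclei with a Ucp1 UMI held an Igf1 UMI. Set against nuclei without a Ucp1 UMI, this gave ratios of 0 with upper bounds of 1.63 and 3.45. Both intervals include 1, so these nuclei are too few to show a lower level. In non-adipocyte nuclei Igf1 had 5 and 1 UMIs. Igf1, Cish, Pim1 and Bcl6 each overlap a gene annotated on the opposite strand.

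**Figure D5:**
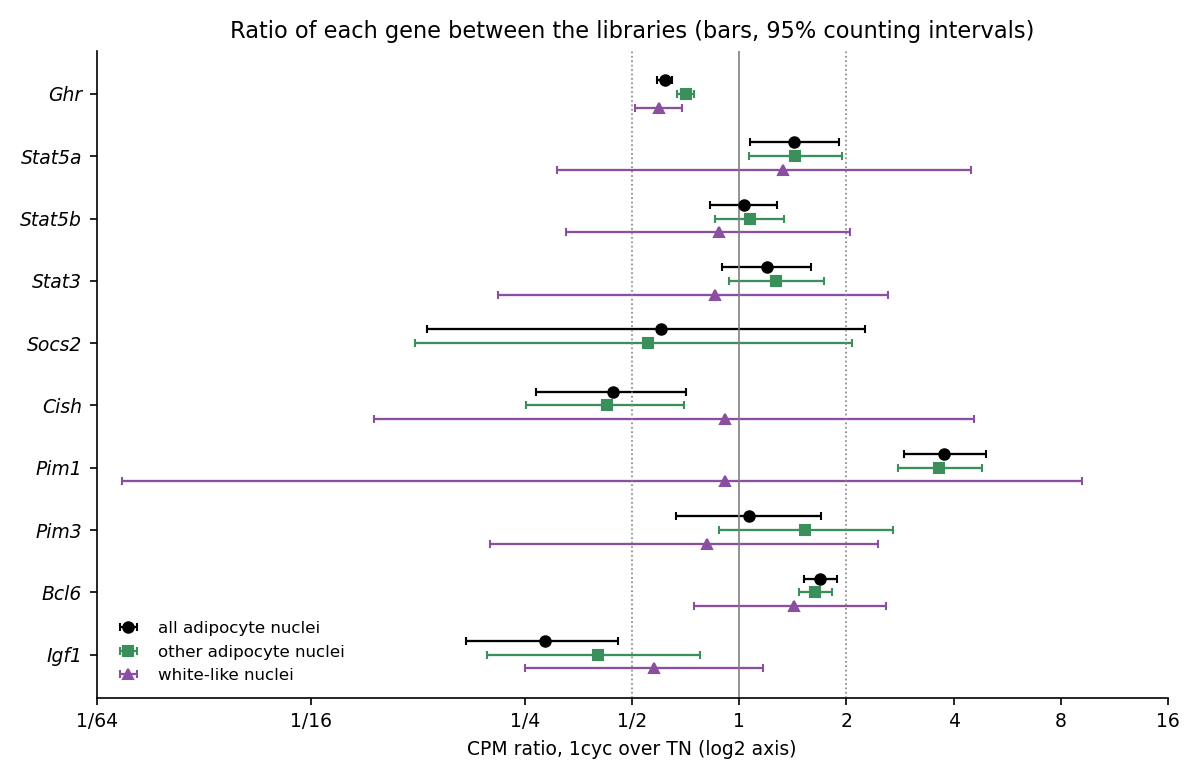
CPM ratio of 1cyc over TN (log2 axis) for each gene in all adipocyte nuclei (black circles), other adipocyte nuclei (green squares) and white-like nuclei (purple triangles), with 95% counting intervals; dotted lines mark 2-fold, and Socs2 has no white-like point because it had 0 UMIs there. Ghr lies below 1 in all 3 sets, and the white-like intervals of Pim1, Bcl6 and Igf1 include 1.

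Between white-like and other adipocyte nuclei, 4 members reached 100 UMIs in TN, and 1 of them, Ghr, was at least 2-fold higher in white-like nuclei, where 7.58% of 2177 genes were. None of the 4 was at least 2-fold lower, where 14% of genes were. In 1cyc, 5 members reached the minimum: Ghr was higher (8.12% of 1959 genes) and 2, Pim1 and Bcl6, were lower (24.1% of genes). Thinning before classing added Bcl6 as lower in TN (0.146, on 2 white-like UMIs) and removed both genes in 1cyc, where Bcl6 was at 0.716 and Pim1 under 100 UMIs. Between adipocyte and non-adipocyte nuclei of TN, 2 of 4 members, Ghr and Bcl6, were at least 2-fold higher in adipocyte nuclei, where 24% of 2411 genes were, and 0 were lower, where 9.66% were. Against the 27 TN nuclei with 0 rule UMIs, Bcl6 was at 1.85 and no longer counted, while Stat5b (2.58, on 2 non-adipocyte UMIs) counted as higher and Stat3 (0.450) as lower. In 1cyc 4 of 6 members, Ghr, Stat5a, Pim1 and Bcl6, were higher, where 31.4% of 2087 genes were, and 0 were lower, where 6.95% were. With nuclei of up to 3 rule UMIs as the non-adipocyte class, Ghr (1.83) and Stat5a (1.73) no longer counted. Shares of genes this large are the background for both class comparisons, and the Stat5a count rests on 3 non-adipocyte UMIs, a ratio of 2.22 (0.739 to 10.9).

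Other genes of the route were taken from 10 lists of 86 genes, of which 26 had at least 100 UMIs over both adipocyte sums. Of the 26, 2 were at least 1.5-fold higher in 1cyc and 2 at least 1.5-fold lower, and their median log2 ratio was 0.07 against 0.09 over all genes. The higher ones were Sh2b2, an adaptor of receptor kinases, at 136 and 229 CPM (ratio 1.69, 1.37 to 2.08), and Ptpn11, which encodes the phosphatase SHP2, with a ratio of 1.59 (1.13 to 2.25). Grb10, an adaptor that restrains insulin and IGF1 receptors, was lower at 72.1 and 27.3 CPM (ratio 0.378, 0.236 to 0.589), as was the interferon gamma receptor gene Ifngr1 (ratio 0.620, 0.458 to 0.834). The kinase genes Jak1 and Jak2 had ratios of 0.932 (0.702 to 1.23) and 1.34 (0.937 to 1.93). The receptor gene Igf1r had 0.858 (0.677 to 1.08), and Irs1, which encodes an insulin receptor substrate, 0.780 (0.641 to 0.946). Foxo1, at 1.25 (1.06 to 1.48), and Igf2r, at 1.38 (1.03 to 1.85), had intervals above 1. Ncor1, which encodes a corepressor partner of BCL6, had 0.990 (0.898 to 1.09). Of 10 immediate early genes, which mark recent stimulation or handling of cells, none reached 100 UMIs. Named after their values were seen, 2 had intervals clear of 1, in opposite directions. Egr1 had 58 UMIs in TN and 9 in 1cyc, a ratio of 0.187 (0.0815 to 0.380), and Nr4a1 40 and 56, a ratio of 1.69 (upper bound 2.60). On the other lists, also named after their values were seen, some genes under 100 UMIs had such intervals. Eif4ebp1 was lower, at 59 and 17 UMIs (ratio 0.347, 0.190 to 0.604). Igfbp7 (0.523, 0.306 to 0.868) and Igfbp3, at 9 and 0 UMIs, were lower too. Jak3 was higher, at 7 and 16 UMIs (ratio 2.75, 1.07 to 7.92).

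By the distance between centred log2(CPM + 10) values over the 6 sums of class and library, among 3503 genes, the patterns most like that of Pim1 were those of Slc4a4 (distance 0.70), Acaa2 (0.92), Gnas (0.96), Gpi1 (1.01) and Slc25a20 (1.02). Slc4a4, a bicarbonate transporter gene, was at 647 CPM in TN and 1241 in 1cyc other adipocyte nuclei, and at 191 and 268 in white-like nuclei. Each of these genes rose less in other adipocyte nuclei than Pim1, which was at 69.0 and 252 CPM. The Pim1 sums held 4 and 1 UMIs in white-like and 5 and 3 in non-adipocyte nuclei, so its distances rest on few molecules. Nearest to Igf1, whose 1cyc sums held 9, 13 and 1 UMIs, were Ccdc80 (0.43), Eepd1 (0.91), Plcb1 (1.01), Cachd1 (1.03) and Hip1 (1.16). Ccdc80, which encodes a secreted protein, was at 780 and 402 CPM in white-like nuclei of TN and 1cyc, and at 58.6 and 32.5 in other adipocyte nuclei. Eepd1 was also lower in 1cyc white-like nuclei, at 1553 and 1099 CPM. Unlike Igf1, Plcb1 (1185 and 1581 CPM), Cachd1 (537 and 670) and Hip1 (633 and 724) were higher in white-like nuclei of 1cyc than of TN.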

How the data were processed

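Raw counts of UMIs for each gene in each barcode were deposited, not normalized. Per the submitters' processing notes the authors aligned reads to mm10 and counted UMIs in Cell Ranger 3, and version 3.1.0 stands in the matrices, per the file headers. Sources used here do not give the annotation, the use of intronic reads or that of strand. The members, lists and class rules were chosen with earlier results of these data known. Counts were summed per library and class and scaled to CPM. CPM has exact Poisson, ratios exact conditional binomial and shares exact Clopper-Pearson intervals (scipy 1.17.1, checked on simulated data). Doublets were kept in the main sums: Scrublet (scanpy 1.11.5) called 10 TN and 9 1cyc nuclei, and leaving them out is an alternative. Other alternatives were other mitochondrial limits, rule thresholds, UMI minimums and folds, TMM (edgeR 4.0.16) and DESeq2 1.42.0 size factors, and thinning. All 10 members, list genes past 1.5-fold, and the 5 patterns nearest to Pim1 and Igf1 were named. The other list genes named above fall outside this rule. Positions came from GENCODE M21, which held 99.6% of the gene identifiers.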

Additional observations from a re-analysis of the deposited data

Results flagged for a closer look

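For 4 members the ratio of 1cyc over TN went one way in white-like nuclei and the other way in the remaining adipocyte nuclei. The ratio was 0.879 in white-like and 1.07 in other adipocyte nuclei for Stat5b, 0.857 and 1.27 for Stat3, 0.910 and 3.65 for Pim1, and 0.809 and 1.53 for Pim3. Each class was 1 sum per library, the 1cyc white-like sums held between 1 and 7 UMIs of these genes, and the difference between the classes was not tested.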

How the results depend on the processing

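Over 16 alternative settings the adipocyte ratio of 1cyc over TN ranged from 3.38 to 4.30 for Pim1, 1.51 to 1.92 for Bcl6, 0.553 to 0.707 for Ghr, 0.381 to 0.495 for Cish and 0.203 to 0.401 for Igf1, and those of Stat3, Stat5b and Pim3 crossed 1. The count of members at least 2-fold apart was 2; it was 1 with a mitochondrial limit of 2%, with thinning to 500 UMIs and without white-like nuclei, where Igf1 fell under 100 UMIs, and 4 at 1.5-fold. It was 3, with Cish joining as lower, at a mitochondrial limit of 10%, with no limit (also with reduced totals), with a minimum of 20 UMIs and with no minimum. With thinning before classing, the count between white-like and other nuclei was 2 in place of 1 in TN and 1 in place of 3 in 1cyc, and the Igf1 ratio in 1cyc was 0, since the 12 white-like nuclei left held no Igf1 UMI. With non-adipocyte nuclei of up to 3 rule UMIs, the 1cyc count between adipocyte and non-adipocyte nuclei was 2 in place of 4. With 0 rule UMIs the TN count was 3 in place of 2, and the TN Stat5b ratio was 2.58 in place of 0.616, on 2 UMIs, and the cause was not tested. Of the list genes, 1 in place of 4 was past 2-fold. The 4 settings, on shared barcodes, haemoglobin, depth and mitochondrial limits, were added after the data were seen. No paired analysis was possible because each condition is 1 pooled library. The 23 white-like nuclei of 1cyc held few UMIs of most members.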
